A study of Homo sapiens with 2 samples.

Results

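Open chromatin at transcription termination sites (TTSs) was described from FAIRE-seq peak lists of HepG2, an established cell line from a human liver cancer. In FAIRE, short for formaldehyde-assisted isolation of regulatory elements, sheared DNA that is not crosslinked to protein is recovered, so that DNA of open chromatin is sequenced more often. The cells had received lentiviral particles with a scrambled small hairpin RNA (control) or with a small hairpin RNA against NR2E3, an orphan nuclear receptor (NR2E3-depleted). The small hairpin RNA lowers the protein and leaves the gene in place, and each group had 1 library. The deposited data were 3 lists of peaks of 300 bp: peaks specific to the control library, peaks specific to the NR2E3-depleted library, and peaks common to both. The members were the peaks outside the mitochondrial genome whose deposited annotation class was TTS. They numbered 892 of 56142 peaks, of which 274 were control-specific, 400 were depleted-specific and 218 were common.

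A transcription termination site here is the annotated 3′ end of a transcript, where the RNA is cut and, in most messenger RNAs, a poly(A) tail is added. RNA polymerase II runs on past this point before it leaves the DNA, and the DNA downstream of a gene end can also hold the promoter or an enhancer of a neighbouring gene. Replication-dependent histone genes are an exception, since their messenger RNAs end in a stem-loop without a poly(A) tail. The annotation program HOMER puts a peak in the TTS class when its centre lies from 100 bp upstream to 1000 bp downstream of a transcript end, unless it lies in a promoter window, which takes priority. The gene name and gene type that the deposited lists give for a peak belong to the nearest transcription start site (TSS), so the gene that ends at the peak was taken here from the transcript named in the annotation class. Of the 892 members, 5 could not be matched to a gene in this way.

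The sequences below are the central 200 bases of 4 members in hg38, each on the strand of the gene that ends there and each free of annotated untranslated regions. They show the highest-scoring depleted-specific member (COPZ2), a high-scoring common member beside a noncoding RNA (LINC01124), a histone gene (H4C1) and a liver transcription factor gene (FOXA2). Capitals mark GGGCGG, the Sp1 motif, CCAAT, the NFY motif, and the core of the CTCF motif, on either strand. A match is a description of the letters and not a binding site.
COPZ2, chr17:48025162-48025361, minus strand: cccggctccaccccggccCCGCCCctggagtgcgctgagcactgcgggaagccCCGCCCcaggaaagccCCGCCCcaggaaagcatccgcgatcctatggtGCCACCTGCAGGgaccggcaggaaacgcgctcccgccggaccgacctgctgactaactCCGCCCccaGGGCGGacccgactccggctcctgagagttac
LINC01124, chr2:170712170-170712369, minus strand: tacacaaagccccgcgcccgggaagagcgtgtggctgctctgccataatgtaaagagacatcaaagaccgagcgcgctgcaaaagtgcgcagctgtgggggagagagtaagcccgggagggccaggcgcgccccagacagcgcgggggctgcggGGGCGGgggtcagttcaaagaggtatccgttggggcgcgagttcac
H4C1, chr6:26022219-26022418, plus strand: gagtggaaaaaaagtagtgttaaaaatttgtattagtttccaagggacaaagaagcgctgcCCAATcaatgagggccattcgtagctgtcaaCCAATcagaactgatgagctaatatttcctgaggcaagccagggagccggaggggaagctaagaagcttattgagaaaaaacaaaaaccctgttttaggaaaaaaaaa
FOXA2, chr20:22580366-22580565, minus strand: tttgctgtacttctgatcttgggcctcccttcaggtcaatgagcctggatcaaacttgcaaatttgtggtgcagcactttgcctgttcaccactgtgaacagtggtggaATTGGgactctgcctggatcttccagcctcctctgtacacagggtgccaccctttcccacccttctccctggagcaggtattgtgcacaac
The COPZ2 window held 5 Sp1 motifs and 1 CTCF core and had a GC content of 72%. The H4C1 window held 2 NFY motifs at a GC content of 40.5%.

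Peak numbers at transcript ends were compared between the lists. The TTS class held 1.69% of the control-specific list (95% interval 1.50 to 1.90), 1.57% of the depleted-specific list (1.42 to 1.73) and 1.52% of the common list (1.33 to 1.73). The depleted-specific minus the control-specific share was -0.123 percentage points, with a counting interval that includes 0 (-0.380 to 0.128). There were 1.46 times as many depleted-specific as control-specific members (1.25 to 1.71), and over all peaks the ratio was 1.57 (1.54 to 1.61). Members thus followed the general excess of depleted-specific peaks. The intervals reflect counting error alone and assume that peaks are independent. With 1 library per group there is no replicate check, and no p-value was computed.

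A library's own peaks are those specific to it plus the common ones. Of the 492 control-library members, 274 (55.7%, 51.2 to 60.1) were specific to that library, against a background of 53.1% over all its peaks. Of the 618 members in the NR2E3-depleted library, 400 (64.7%, 60.8 to 68.5) were specific, against a background of 64%. Both shares lay near their background.

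The position on the genome altered this picture. Chromosomes 2, 6, 14, 16, 17 and 20 held most control-specific peaks, and they held 83.6% of the control-specific members, 65.5% of the depleted-specific ones and 78.9% of the common ones. Over all peaks these chromosomes held 81.6%, 65.9% and 65.9% of the same lists. The ratio of depleted-specific to control-specific members was 1.14 (0.955 to 1.37) on the 6 dense chromosomes and 3.07 (2.18 to 4.39) on the others, and over all peaks it was 1.27 and 2.92. On the other chromosomes the TTS share was 0.940% of common peaks, against 1.51% of control-specific peaks (a difference of -0.570 points, -1.13 to -0.0578) and 1.59% of depleted-specific peaks (-0.646 points, -1.03 to -0.245). There, 138 of the 184 members in the NR2E3-depleted library were specific to it (75%, 68.1 to 81.1), against 64.0% of all its peaks, and 45 of the 91 members in the control library were specific (49.5%, 38.8 to 60.1), against 37.8% of all its peaks. On the 6 dense chromosomes the common list had the highest share, 1.82%, and the intervals of its differences from the specific lists include 0. Promoter-class peaks made up 35.6% of the common list on the other chromosomes, against 15.2% (control-specific) and 22.2% (depleted-specific). With promoter-class peaks left out of the total, the TTS shares there were 1.46% (1.07 to 1.94), 1.78% (1.30 to 2.38) and 2.04% (1.71 to 2.4) of the common, control-specific and depleted-specific peaks. Among single chromosomes, chromosome 14 held 63 control-specific, 41 depleted-specific and 36 common members, and its TTS share was 1.20% in the depleted-specific and 1.90% in the control-specific list, a difference of -0.695 points (-1.32 to -0.0866). Chromosome 20 held 61, 71 and 45. The X and Y chromosomes held none. Why these chromosomes hold more peaks was not tested.

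**Figure D1:**
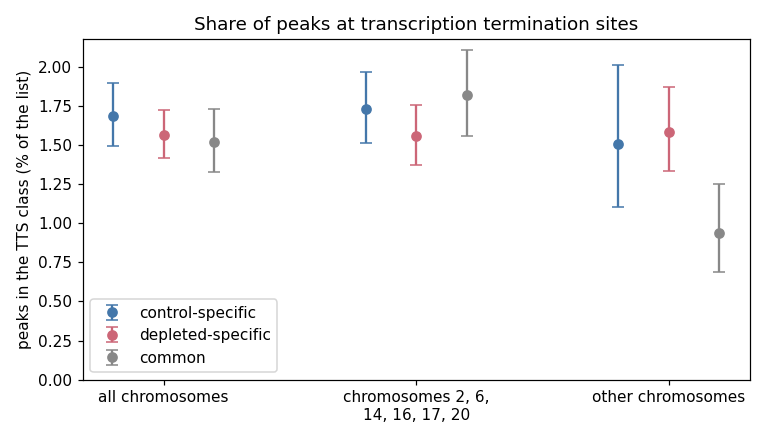
Peaks in the TTS class as a percent of each list (vertical axis), over all chromosomes, the 6 dense chromosomes and the other chromosomes, with exact 95% binomial intervals as bars. The 3 lists overlap on all chromosomes, and the common list stands lowest, at 0.940%, on the other chromosomes.

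Within the class, peaks lay throughout the window that defines it. The transcript end could be placed for 261 control-specific, 372 depleted-specific and 202 common members through GENCODE, and 93.1%, 93.5% and 98.0% of these fell within the window around an end of the gene. The median distance was 436 bp downstream of the end for control-specific members (380 to 494), 431.5 bp for depleted-specific members (364 to 500) and 427 bp for common members (352 to 488). Per 100 bp of the window there were 17 to 29 control-specific, 25 to 43 depleted-specific and 12 to 26 common members. The 100 bp just downstream of the end held 19, 26 and 26 of them, which was the fullest stretch in the common list alone. Annotated untranslated regions were overlapped by 29.9%, 25.3% and 31.7% of control-specific, depleted-specific and common members, and the interval of each difference between lists includes 0.

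**Figure D2:**
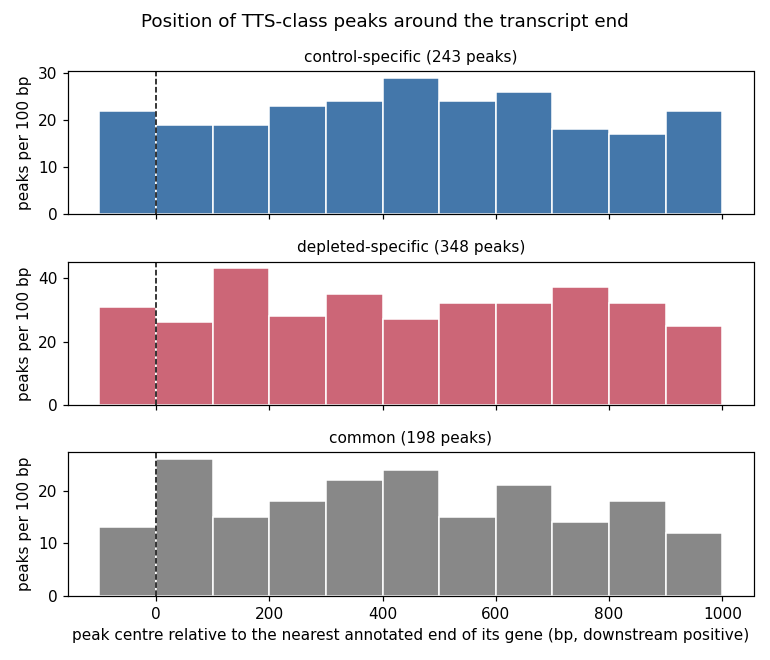
Number of members per 100 bp (vertical axis) by distance of the peak centre from the nearest annotated end of its gene (horizontal axis, bp, downstream positive), for 243 control-specific, 348 depleted-specific and 198 common members inside the window. Bars stay between 12 and 43 peaks, and the bar just downstream of the dashed line, the transcript end, is the fullest only in the common panel, at 26.

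Tag numbers at transcript ends were low. The deposited peak score is a scaled tag number, with 1 tag worth 0.407 for control-specific and for common peaks and 0.507 for depleted-specific ones. The common list thus carries control-library values. Control-specific members had 11 to 31 tags with a median of 15 (14 to 15), depleted-specific members 9 to 25 with a median of 13 (12 to 13), and common members 11 to 81 with a median of 16 (16 to 17). Peaks outside the TTS and promoter classes had medians of 14, 12 and 16 tags in the same lists, so that members differed from them by at most 1 tag. The depleted-specific minus the control-specific median was -2 tags (interval -3 to -1), whereas on the deposited score it was higher, 6.59 (6.08 to 6.59) against 6.10 (5.69 to 6.10). The direction of this comparison therefore depended on the scale. At least 15 tags were found in 150 control-specific members (54.7%), 86 depleted-specific members (21.5%) and 171 common members (78.4%), against 45.7%, 20.6% and 74.4% of all peaks in these lists. On the deposited score, 15 tags were 6.1 for control-specific and 7.6 for depleted-specific peaks, so on that scale the threshold was stricter for the latter. At this threshold the ratio of depleted-specific to control-specific members turned to 0.573 (0.435 to 0.752), and that over all peaks to 0.707.

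**Figure D3:**
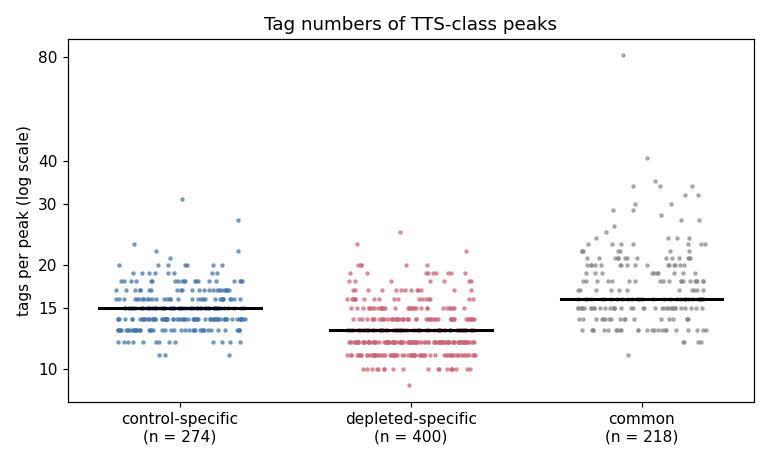
Tags per peak (vertical log scale) for every member, by list, with the median as a black line. Medians are 15, 13 and 16 tags, and peaks above 31 tags occur in the common list, up to 81.

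The highest-scoring members lay at genes of varied function. Among control-specific members the highest was past the end of PXMP4, a peroxisomal membrane protein gene, with 31 tags (exact Poisson interval 21.1 to 44). AP1G2-AS1, a noncoding RNA antisense to the adaptor gene AP1G2, had 27 tags, and NFKBIA, the gene of the inhibitor of NF-kB, had 23. PCK2, which encodes mitochondrial phosphoenolpyruvate carboxykinase, and REXO5, an RNA exonuclease gene, had 22 each. The lowest control-specific member had 11 tags. The first 5 control-specific members were thus at 4 protein-coding genes and 1 noncoding RNA.

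Among depleted-specific members the highest, with 25 tags (16.2 to 36.9), was 906 bp past the end of COPZ2, a coatomer subunit gene, at chr17:48025111-48025411. This peak was CpG-rich, with a GC content of 68.8%. MIR3180-4, a microRNA gene on chromosome 16, had 23 tags at a GC content of 78.4%, and near-identical copies of this microRNA make its reads uncertain. LINC02652, a long noncoding RNA gene on chromosome 10, had 22 tags. C14orf93 had 20 tags. The nearest control-library peak was 515 bp from the COPZ2 peak and 309 bp from the C14orf93 peak, but 50351 bp or farther from those at MIR3180-4 and LINC02652.

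The common members reached higher values. RNA45SN2, a copy of the 45S ribosomal RNA gene on chromosome 21, had 81 tags (64.3 to 101), and its reads cannot be told apart from those of the other copies. TTLL4, a tubulin polyglutamylase gene, had 41 tags at chr2:218755788-218756088, 522 bp past its end. PRM1, which encodes the sperm protein protamine, had 35, and C19orf67 and LINC01124 had 34 each. These 5 values all exceeded the highest control-specific value of 31 tags on the same scale.

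Some gene ends held members of several lists. C14orf93 had 4 members, a common peak of 30 tags, control-specific peaks of 18 and 16 tags and the depleted-specific peak of 20 tags. The depleted-specific peak and the nearer control-specific peak lay 309 bp apart, which was also the smallest distance of any specific member to a peak of the other library. AP4S1, an adaptor complex subunit gene, also had 4 members, 1 common (15 tags), 1 control-specific (16) and 2 depleted-specific (15 and 11), with specific peaks of the libraries 419 bp apart at one of its ends. CTCFL, the germline paralogue of CTCF, had 1 member in each list (20 common, 13 control-specific and 12 depleted-specific tags), and so had LINC02313 (20, 13 and 10). These 4 genes were the only ones with a member in all 3 lists. The noncoding RNA gene LOC101927045 had 2 common members (18 and 15 tags) and 1 depleted-specific member (14 tags). Of all control-specific members 24.5% (19.5 to 30) lay within 1000 bp of a peak from the other library, against 21.7% of all control-specific peaks, and 17.75% (14.1 to 21.9) of depleted-specific members, against 14.8%. How peaks were assigned to the common or a specific list is not stated, and a peak shifted by a short distance in the other library cannot be told apart from a peak lost or gained.

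Over genes, 818 had at least 1 member, and 757 of them had exactly 1. The control-specific, depleted-specific and common members lay at 268, 385 and 215 genes. Counting genes seen in 1 list alone, there were 353 in the depleted-specific, 232 in the control-specific and 187 in the common list, a ratio of depleted-specific to control-specific of 1.52 (1.29 to 1.80). This ratio was 3.12 without the 6 dense chromosomes and turned to 0.583 with peaks of at least 15 tags. The specific lists shared 22 genes, which is 8.21% of those in the control-specific list and 5.71% of those in the depleted-specific list. Counts of genes in 1 list alone, their ratio and this overlap were not computed for other classes of peaks, so no background is given for them.

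The share of members at protein-coding genes was lower in the depleted-specific than in the control-specific list. Protein-coding genes accounted for 224 of 272 matched control-specific members (82.4%, 77.3 to 86.7), 287 of 398 depleted-specific members (72.1%, 67.4 to 76.5) and 162 of 217 common members (74.7%, 68.3 to 80.3). The type counted was that of the gene, also where the named transcript was a noncoding one of a protein-coding gene. The difference, depleted-specific minus control-specific, was -10.2 points (-16.6 to -3.57). On the 6 dense chromosomes it was -9.85 points (-17.2 to -2.29), and on the others -6.71 points with an interval that includes 0 (-21.0 to 10.2). With peaks of at least 15 tags it was -10.2 points, and this interval also includes 0 (-22.1 to 0.864). By the deposited gene type, which describes the nearest TSS, the difference in the share of protein-coding genes was -5.74 points with an interval that includes 0 (-12.8 to 1.49). Shares of gene types over all peaks of each list were not computed.

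Among noncoding genes, microRNA genes made up 20 of 398 depleted-specific members (5.03%) and 5 of 272 control-specific members (1.84%), a difference of 3.19 points (0.108 to 6.09). Within the dense chromosomes it was 2.47 points (-0.942 to 5.93) and within the others 4.30 points (-5.87 to 10.2), and both intervals include 0. Long noncoding RNA genes made up 18.8% and 13.6%, and the interval of this difference of 5.24 points includes 0 (-0.721 to 10.9). Small nucleolar RNA genes numbered 6 depleted-specific, 1 control-specific and 0 common members, where 0 of 217 allows a share of up to 1.38%, taken as 3 counts of the total and not as a Clopper-Pearson limit. All 3 lists together held 35 members at microRNA genes, with 11 to 32 tags. A microRNA gene is annotated as a short hairpin, so its end lies close to its start: in 34 of the 35 the nearest TSS was its own, 151 to 1048 bp away. MicroRNA members with most tags were MIR4729, common, with 32 tags on chromosome 17, MIR3180-4 with 23 and MIR4707, common, with 22.

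The nearness of start sites was compared next. The nearest TSS belonged to a gene other than the one that ended at the peak in 144 of 271 control-specific members (53.1%, 47.0 to 59.2), 204 of 398 depleted-specific members (51.3%, 46.2 to 56.3) and 97 of 217 common members (44.7%, 38.0 to 51.6). The deposited gene name was thus that of another gene for more than 50% of the members in both specific lists. The median distance to the nearest TSS was 8669 bp for control-specific (6933 to 10621), 7217 bp for depleted-specific (6095 to 8659) and 6322.5 bp for common members (5302 to 7831), with overlapping intervals between the specific lists. The nearest TSS was another gene's and lay within 3000 bp in 35 control-specific (12.9%, 9.16 to 17.5), 38 depleted-specific (9.55%, 6.85 to 12.9) and 22 common members (10.1%, 6.46 to 14.9). Members nearer to their own start were not counted here, whether or not another gene's start was also within 3000 bp. The depleted-specific minus the control-specific share was -3.37 points, with an interval that includes 0 (-8.69 to 1.64). At this number of peaks, no difference by this measure was detectable. Counting any GENCODE protein-coding start of another gene within 3000 bp, the difference was -1.20 points, with an interval that includes 0 (-7.31 to 4.66).

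The nearest TSS was the gene's own and lay within 3000 bp in 25 control-specific (9.23%), 62 depleted-specific (15.6%) and 37 common members (17.1%). Members with a nearer start of another gene were not counted here. The depleted-specific share was 6.35 points higher than the control-specific one (1.02 to 11.4). Split by gene type, the shares at protein-coding genes were 6.62% depleted-specific and 6.73% control-specific, a difference of -0.106 points (-4.98 to 4.47). At genes of other types they were 38.7% and 20.8%, a difference of 17.9 points (1.08 to 32.1). Genes of other types held 43 of these 62 depleted-specific members and 10 of these 25 control-specific ones. The difference between the gene types was not tested.

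**Figure D4:**
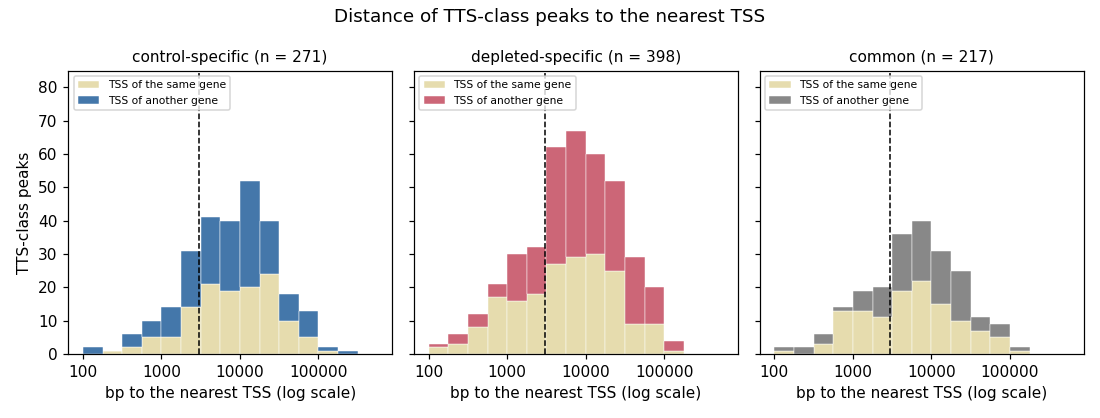
Number of members (vertical axis) by distance of the peak from the nearest TSS (horizontal log scale, bp), stacked by whether that TSS belongs to the gene that ends at the peak (pale) or to another gene (coloured), with 3000 bp dashed. Where the nearest TSS lies within 3000 bp, it is another gene's for 35 control-specific, 38 depleted-specific and 22 common members, and the gene's own for 25, 62 and 37.

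Where another gene held the nearest TSS and both strands were known, the neighbour most often started downstream on the same strand, in 43.3% of 127 control-specific members, 45.7% of 175 depleted-specific ones and 42.7% of 82 common ones. In 35.4%, 36.6% and 37.8% the neighbour was on the opposite strand and read towards the peak, as at converging genes. In 9.45%, 10.3% and 7.32% it was on the opposite strand and read away from the peak. The peak lay downstream of a neighbour's start on the same strand in 11.8%, 7.43% and 12.2%. The order of the arrangements from most to least frequent was the same for the leading pair in the 3 lists.

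The highest-scoring members whose nearest TSS was another gene's within 3000 bp had these arrangements. Of the control-specific ones, AP1G2-AS1 had 27 tags at -1068 bp, that is upstream, of the AP1G2 start. TMEM253, a membrane protein gene, had 21 tags, 1006 bp downstream of the listed start of the zinc finger gene ZNF219, and the small nucleolar RNA gene SNORD12B had 19 tags, 657 bp past the start of SNORD12. The 3 were on chromosomes 14, 14 and 20. Of the depleted-specific ones, CCR10, a chemokine receptor gene, had 20 tags and lay upstream of the start of PLEKHH3 on the same strand. A control-library peak lay 433 bp from it. SEC23A-AS1, antisense to the COPII coat gene SEC23A, had 19 tags at -1364 bp of the SEC23A start. TARDBPP3, a pseudogene of the RNA-binding protein gene TARDBP whose reads may be shared with copies, had 19 tags and lay 2785 bp past the start of LOC643387. By GENCODE, 18 control-specific (6.57%), 39 depleted-specific (9.75%) and 28 common members (12.8%) were inside the promoter window of some annotated transcript, which the deposited annotation did not use. The peaks at AP1G2-AS1, TMEM253, SEC23A-AS1 and TARDBPP3 were among them. GENCODE starts of AP1G2, ZNF219 and SEC23A lay 789, 119 and 770 bp from the peaks at AP1G2-AS1, TMEM253 and SEC23A-AS1.

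The sequence of the members was richer in G and C than that of peaks elsewhere. Median GC content was 45.5% for control-specific, 45.3% for depleted-specific and 46.5% for common members. These medians exceeded those of peaks outside the TTS and promoter classes by 1.66 points (0.997 to 3.03), 1.83 points (0.997 to 2.66) and 1.99 points (1.33 to 3.65). The specific lists differed from each other by -0.166 points, depleted-specific minus control-specific (-1.73 to 0.898), and by -3.65 points without the 6 dense chromosomes (-6.47 to 1.75). CpG-rich members, with a GC content of at least 50% and an observed over expected CpG ratio of at least 0.6, made up 4.74%, 8% and 10.6% of control-specific, depleted-specific and common members, against 1.40%, 2.52% and 4.36% of peaks outside both classes. In the promoter class these shares were 52.3%, 74.2% and 78.8%, so members were much closer to the other peaks than to promoters.

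Motifs were counted in the central 200 bp of each peak, on both strands. With 7 motifs in 3 lists, 21 differences from other peaks were computed, and the intervals are not adjusted for this number. Each motif was further compared between every pair of lists, and those intervals are not adjusted either. The Sp1 motif GGGCGG was in 16 control-specific (5.84%), 36 depleted-specific (9%) and 30 common members (13.8%). These shares exceeded the 3.14%, 4.28% and 6.18% of peaks outside the TTS and promoter classes by 2.70 points (0.216 to 6.18), 4.72 points (2.09 to 7.97) and 7.58 points (3.27 to 12.9). The depleted-specific share was 3.16 points above the control-specific one, with an interval that includes 0 (-1.19 to 7.23). Of the members with the motif, 4 of 16, 23 of 36 and 15 of 30 were CpG-rich, so in the depleted-specific list the motif was mostly in CpG-rich sequence. Where the nearest TSS was another gene's within 3000 bp, the motif was in 4 of 35 control-specific members (11.4%), 9 of 38 depleted-specific ones (23.7%) and 5 of 22 common ones (22.7%). In the remaining members, which can also lie near another gene's start, it was in 5.08%, 7.50% and 12.8%. No intervals were computed for these shares, and their differences were not tested.

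CTCF binds insulators and the borders of chromatin loops. Its core motif was in 3.65% of the control-specific members, 5.00% of the depleted-specific ones and 9.63% of the common ones. The common share exceeded that of common peaks outside both classes (3.59%) by 6.04 points (2.45 to 10.8), the control-specific members by 5.98 points (1.35 to 11.1) and the depleted-specific members by 4.63 points (0.206 to 9.72). The depleted-specific share also exceeded that of other depleted-specific peaks (2.70%), by 2.30 points (0.366 to 4.92), and the interval of the control-specific excess of 1.86 points includes 0 (-0.0424 to 4.82). Among the 21 common members with the core was the 30-tag peak at C14orf93. The poly(A) signal AATAAA was in 25.9%, 25.75% and 25.7% of the members, with an excess over other peaks whose interval excludes 0 in the common list (6.74 points, 1.02 to 13.1) and includes it in the specific lists. The NFY motif CCAAT was in 20.8% of control-specific members, against 26.5% of other control-specific peaks (a difference of -5.72 points, -10.4 to -0.378), and in 23.75% and 24.8% of depleted-specific and common members. The AP-1 motif TGANTCA, the FOXA motif TGTTTAC and the HNF4 motif CAAAGTCCA were in 6.88% to 9.50%, 4.25% to 5.96% and 1.50% to 2.75% of members, and each interval of the difference from other peaks includes 0.

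**Figure D5:**
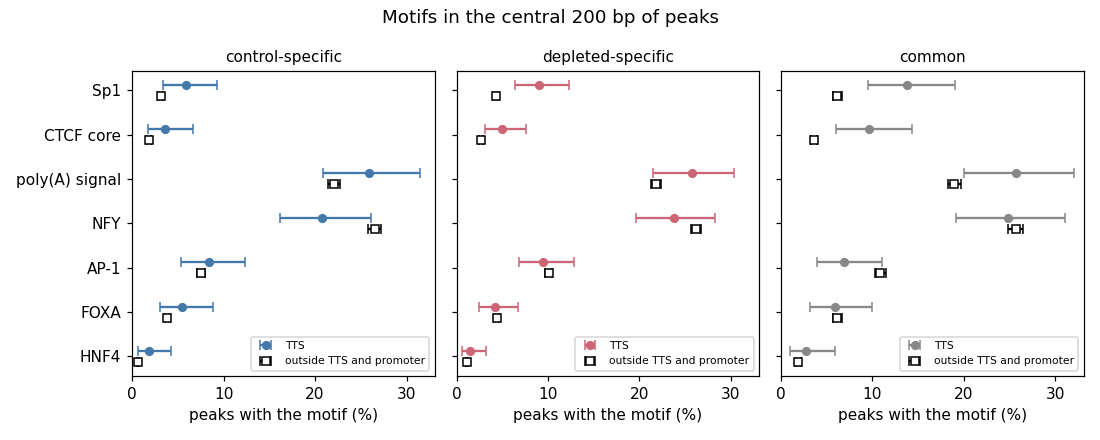
Percent of peaks with each motif in the central 200 bp (horizontal axis), for members (filled circles) and for peaks outside the TTS and promoter classes (open squares), by list, with exact 95% binomial intervals. Members stand to the right of the squares for the Sp1 motif in each list, and for the CTCF core farthest in the common list, at 9.63% against 3.59%.

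Genes with a role in liver, Wnt signalling, histone supply and RNA 3′ end formation were looked up among the members. Of all 20056 protein-coding genes in the gene table, 618 (3.08%) had a member. Replication-dependent histone genes had the highest count, with 16 of 63 genes (25.4%) and 17 peaks, of which 4 were control-specific, 6 depleted-specific and 7 common. All 17 lie on chromosome 6, 1 of the dense chromosomes. Histone genes are short, and in 15 of the 17 the nearest TSS was the gene's own, 373 to 1426 bp away. Common histone members had 14 to 23 tags, highest at H2BC4 (23) and H1-2 (20), control-specific ones 14 to 16, highest at H3C4 and H3C10 (16 each), and depleted-specific ones 11 to 17, highest at H4C5 (17) and H2AC6 (16). H4C5 carried the only pair of members of 1 list among these genes, with 17 and 12 tags. The NFY motif was in 6 of the 17. Histone genes are similar in sequence, and reads may be shared between copies.

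Of 60 hepatocyte genes, 7 (11.7%) had a member, with 2 control-specific, 2 depleted-specific and 4 common peaks. HNF4A, FOXA2 and PCK1 lie on chromosome 20 and FOXA1 on chromosome 14, which are dense chromosomes. FOXA3, F10 and NR0B2 lie on chromosomes 19, 13 and 1. The share was not matched by chromosome. The liver transcription factor gene HNF4A had 1 depleted-specific member at chr20:44432972-44433272 with 17 tags and 1 control-specific member at chr20:44435321-44435621, also with 17 tags, at the ends of different transcripts. The deposited lists name both after LINC01430, whose TSS is the nearest. A peak of the other library lay 409 bp from the depleted-specific HNF4A member and 1176 bp from the control-specific one. The pioneer factor genes FOXA1 (19 tags), FOXA3 (18) and FOXA2 (13) had common members, as had PCK1, a gluconeogenic enzyme gene (15). The FOXA2 member lay 533 bp past the end of FOXA2 and at -1823 bp of the start of LINC00261. F10, the gene of coagulation factor X, had a control-specific member of 15 tags, and NR0B2, the gene of the nuclear receptor SHP, a depleted-specific one of 11 tags.

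Among 64 Wnt/β-catenin signalling genes, 3 (4.69%) had a member. CCND1, which encodes cyclin D1, had a depleted-specific member of 13 tags 423 bp past its end. GSK3B, the gene of a kinase that marks β-catenin for degradation, and MYC, a transcription factor gene that β-catenin induces, had control-specific members of 14 tags each. Of 32 genes of RNA 3′ end formation and termination, PABPN1, a nuclear poly(A)-binding protein gene, and RPRD1B, a gene of a regulator of the polymerase II tail, had common members of 16 tags each. These counts are too small to compare the lists.

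Genes with a member at their end often had a promoter-class peak as well. Of the protein-coding genes with a control-specific member, 134 of 219 (61.2%, 54.4 to 67.7) had a promoter-class peak in any list, as had 144 of 275 with a depleted-specific member (52.4%, 46.3 to 58.4) and 83 of 159 with a common member (52.2%, 44.1 to 60.2). Of all 20020 protein-coding genes, 5737 had such a peak (28.7%). This share was not matched by chromosome, although most members of each list lay on the dense chromosomes. A promoter-class peak specific to the NR2E3-depleted library was found at 13.1% (9.34 to 17.7) of the genes with a depleted-specific member and at 18.3% (13.4 to 24.0) of those with a control-specific member. These intervals overlap.

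As a check of the cell type, promoter-class peaks were found at 11 of 16 liver marker genes, 10 of them in the common list. APOA1, APOB and SERPINA1 were among the 11, whereas ALB, AFP, TTR, FGB and CEBPA had no such peak. Marker genes of blood, mesenchymal and endothelial cells had one at 0 of 7. The depletion of NR2E3 cannot be read from open chromatin and was not checked here.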

How the data were processed

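Each group, control and NR2E3-depleted, had 1 FAIRE-seq library, grouped by the treatment label. The authors used Trimmomatic 0.39 for trimming, Bowtie2 2.4.5 for alignment to hg38 and HOMER for peak calling and annotation. The authors deposited a score for each peak, a scaled tag number. Every score under 10 (100%) was a whole multiple of a step that differed by list (rounding tolerance 0.01). Tags were the score over that step. Library totals are not given in the sources used here, so depth is known only through these steps.

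Genes came from the transcript named in the deposited class (RefSeq gene table, GRCh38.p14), strands, ends and untranslated regions from GENCODE 44, sequences from hg38. Scripts ran in Python 3.11.15 with pandas 2.3.3, scipy 1.17.1 and pysam 0.24.0 and were tested on simulated lists. Shares carry exact Clopper-Pearson intervals, differences intervals combined from them by Newcombe's approach, ratios exact binomial intervals, and medians rank intervals, all at 95%. Members, gene lists, the 6 dense chromosomes and thresholds were chosen with earlier results of these data known. Named members were, by rule, the 5 with the highest score per list, the 5 genes with most members, the 3 highest near another start per specific list, genes of the lists (up to 8 each by score) and genes in all 3 lists. MIR4729, MIR4707, H3C10 and the chromosomes singled out were chosen after their values were seen. Some items that these rules name are not reported here.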

Additional observations from a re-analysis of the deposited data

Results flagged for a closer look

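The rule for members left out the mitochondrial genome, where 3 further peaks carried the TTS class: 1 control-specific peak with a score of 1229.7 and 2 common peaks with scores of 4220.2 and 3681. The highest score among the members was 32.9. The NR2E3-depleted-specific list held 0 such peaks. These peaks were singled out as signal outside the comparisons, and what they represent was not tested.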

How the results depend on the processing

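Each of the 7 main values was recomputed under other settings, 31 recomputations in all. Of these, 24 stayed within the counting interval of the reported value, 5 moved outside it and 2 turned direction. A turn was counted only where the main interval excludes no difference. Among the 24, the difference in TTS share changed sign to 0.0757 points without the 6 dense chromosomes. The difference in median GC content changed sign to 0.498 points with peaks of at least 15 tags. Without the 6 dense chromosomes the ratio of depleted-specific to control-specific members was 3.07, the ratio of genes with a member in 1 specific list alone was 3.12 and the difference in median GC content was -3.65 points. Over all peaks the ratio on these chromosomes was 2.92. With peaks of at least 15 tags the ratio of members turned to 0.573 and the ratio of genes to 0.583, the difference in TTS share was -0.382 points and the difference in median tags was 0. This threshold keeps 54.7% of control-specific and 21.5% of depleted-specific members. It stands for a higher deposited score in the depleted-specific than in the control-specific list.

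The cause of these changes was not tested. Defining members by GENCODE ends of protein-coding genes gave a ratio of 1.35, and it could not be applied to the share of protein-coding genes, which is 100% by construction. No paired analysis was possible because there was 1 library for each treatment, and no library could be left out. Depth limits the smallest values: members had as few as 9 tags.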
